A study of Mus musculus with 112 samples.

Results

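The mice described here stood at the ends of a ranking by Chrna1, the gene of the alpha subunit of the muscle acetylcholine receptor. For each mouse the change of Chrna1 was the immobilized limb minus the control limb in log2(CPM + 1). CPM is the count of a gene scaled by its library's column sum to a common total, and 1 is the pseudocount. The 12 mice with the highest change are called strong mice and the 12 with the lowest weak mice, out of 44 ranked mice and 56 in the series. The 20 mice between them are called middle mice. Another 12 mice were left out of the ranking. In 7 of these, and in 0 of the 44 ranked mice, a library held under 50% of the median level of Acta1, the actin of muscle fibres. Males 15 and 16 were also left out by the rule.

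Every mouse came from the Diversity Outbred stock, in which each animal carries its own mixture of founder genomes, and was 16 weeks old. The right hindlimb had spent 3 weeks in a cast and the left was the control. Side and treatment therefore cannot be told apart, and the control limb also belonged to an animal wearing a cast. RNA from the gastrocnemius, a calf muscle, was depleted of ribosomal RNA and sequenced as stranded total RNA. Total counts ran from 3627850 to 4972090 in immobilized and 3169641 to 4772186 in control limbs of strong mice, and from 3129415 to 5836341 in immobilized and 2555619 to 6065402 in control limbs of weak mice. Over all 88 ranked libraries they ran from 1716485 to 9995936. The fibre genes Acta1, Ckm and Mb were present in each of the 88 libraries, with Acta1 between 17640 and 45843 CPM.

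The acetylcholine receptor of muscle is a pentamer that opens when the motor nerve releases acetylcholine. Agrin from the nerve, its receptor Lrp4 and the kinase Musk gather receptors under the nerve ending, and nerve activity silences receptor genes along the remainder of the fibre. Denervated muscle loses that silencing: the deacetylase Hdac4 accumulates, the repressor Dach2 falls, myogenin (Myog) rises, and receptor genes, Runx1 and the fetal gamma subunit Chrng are switched on. Myogenic factors such as myogenin bind E-boxes, the motif CANNTG. The 250 bases before the RefSeq transcription start on build GRCm38.p6 are shown for the receptor subunits because the ranking and the values below turn on these genes. Lower case runs 5′ to 3′ on the strand of the gene and capitals mark each CANNTG, a pattern that reads the same on both strands. Of the 5 subunit genes 4 were matched in the RefSeq promoter table, namely Chrna1 at chr2:73580339-73580588, Chrnb1 at chr11:69795938-69796187, Chrne at chr11:70619195-70619444 and Chrng at chr1:87205561-87205810. The first 3 lie on the minus strand and Chrng on the plus strand.
Chrna1: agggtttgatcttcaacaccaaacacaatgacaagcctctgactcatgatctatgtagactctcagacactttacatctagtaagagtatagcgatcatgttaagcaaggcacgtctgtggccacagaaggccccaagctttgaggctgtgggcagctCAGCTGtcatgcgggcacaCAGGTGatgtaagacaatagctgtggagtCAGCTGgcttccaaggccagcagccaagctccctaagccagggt
Chrnb1: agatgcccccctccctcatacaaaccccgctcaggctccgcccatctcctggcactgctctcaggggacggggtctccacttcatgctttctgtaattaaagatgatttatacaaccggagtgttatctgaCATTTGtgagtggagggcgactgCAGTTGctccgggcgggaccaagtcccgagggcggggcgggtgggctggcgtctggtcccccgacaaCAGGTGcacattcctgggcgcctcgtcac
Chrne: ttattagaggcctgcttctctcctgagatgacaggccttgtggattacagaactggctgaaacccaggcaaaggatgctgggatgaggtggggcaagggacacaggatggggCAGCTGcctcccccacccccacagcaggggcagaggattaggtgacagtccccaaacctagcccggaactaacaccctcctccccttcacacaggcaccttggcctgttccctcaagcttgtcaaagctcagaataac
Chrng: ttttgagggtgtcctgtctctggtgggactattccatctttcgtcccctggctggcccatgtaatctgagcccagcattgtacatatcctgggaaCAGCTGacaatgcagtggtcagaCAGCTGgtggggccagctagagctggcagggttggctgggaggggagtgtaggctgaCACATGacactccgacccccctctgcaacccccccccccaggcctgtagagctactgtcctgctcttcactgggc
Chrna1, Chrnb1 and Chrng had 3 E-boxes each in this window and Chrne had 1. At least 3 were found in 12.2% of 32851 RefSeq windows of this length and at least 1 in 66.2%. These matches are letters in the sequence, with no measurement of binding.

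The mice were chosen by the Chrna1 change, so the values of Chrna1 are a description. In strong mice Chrna1 lay at 35.2, 80.5 and 199 CPM in the immobilized limb (lowest, median and highest of 12) and at 12.0, 18.7 and 30.0 CPM in the control limb. In weak mice it lay at 5.07, 14.5 and 28.8 CPM in the immobilized limb and at 9.72, 21.1 and 41.0 CPM in the control limb. The immobilized limbs of the 2 sets of mice did not overlap, while the control limbs did. The strong minus weak difference of the mean log2 level was 2.44 in the immobilized limb and -0.14 in the control limb. The mean change was 2.00 ± 0.48 in strong mice and -0.58 ± 0.61 in weak mice (SD, n = 12 each). The name weak covers mice without any gain: Chrna1 was higher in the immobilized limb of 2 of the 12 weak mice and lower in 10. The lowest change among strong mice was 1.27 in female 45, next to 1.23 in female 43 of the middle mice. The highest change among weak mice was 0.10 in female 47, next to 0.24 in female 25 of the middle mice. Behind these values stood 24 to 721 Chrna1 counts per library of the strong and weak mice.

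**Figure D1:**
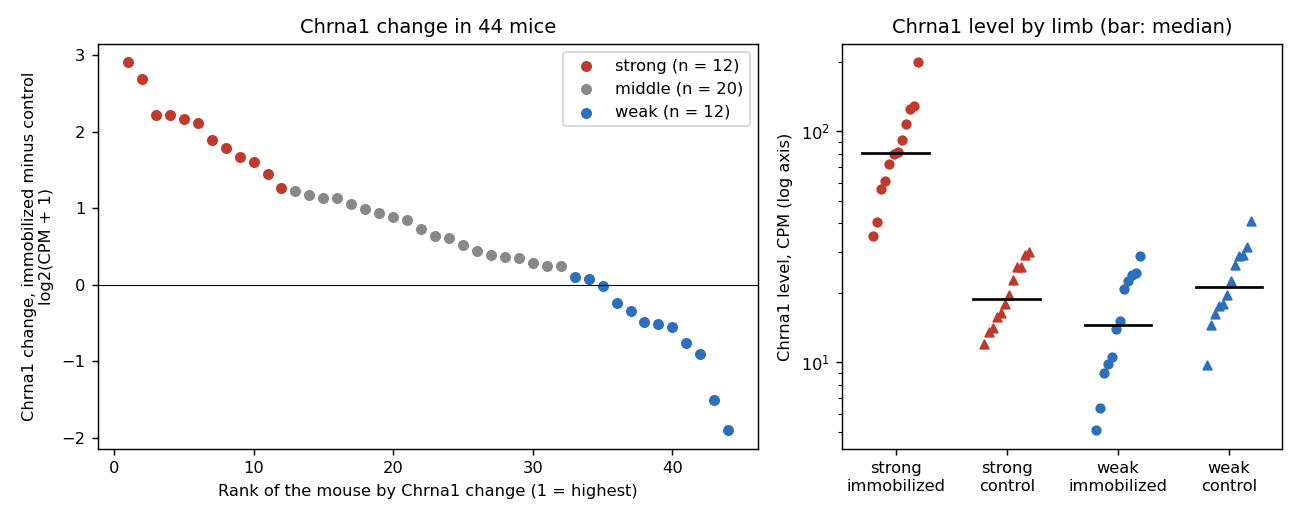
Left, the Chrna1 change of each of the 44 mice (immobilized minus control, log2(CPM + 1)) against its rank, with strong mice in red, middle mice in grey and weak mice in blue. Right, the Chrna1 level in CPM on a log axis in each limb, 1 point per mouse and a bar at the median: the strong immobilized limbs, at 35.2 CPM or more, lie above the weak immobilized limbs, at 28.8 CPM or less, and the control limbs overlap.

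From highest to lowest change the strong mice were males 37, 12 and 20, females 10, 8, 4, 1 and 3, males 59, 17 and 36, and female 45. From highest to lowest the weak mice were female 47, males 58 and 39, females 6, 23 and 7, male 38, female 49, males 33, 31 and 54, and female 27. The sexes were equally split, with 6 females among the strong and 6 among the weak mice (two-sided Fisher exact p = 1). The animal numbers were not: 8 of 12 strong mice and 2 of 12 weak mice were numbered 1 to 20 (two-sided Fisher exact p = 0.0361), against 17 of the 44 ranked mice. With 8 mice at each end these numbers were 7 strong and 1 weak (two-sided Fisher exact p = 0.0101), and with 15 they were 8 strong and 4 weak (two-sided Fisher exact p = 0.264). The labels do not say what the numbering follows, so results are also given by number below, with 8 strong and 2 weak mice numbered 1 to 20 and 4 strong and 10 weak mice numbered 21 to 59.

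The cast effect over all 44 mice did not use the ranking and was tested on the counts with edgeR's quasi-likelihood test, with the animal as a block, log2 fold changes ± SE and Benjamini-Hochberg adjustment at a threshold of 0.05. It called 15.9% of 11054 genes higher and 18.0% lower in the immobilized limb. Of the 4 receptor subunits that passed the low-count filter, 3 rose: Chrna1 by 0.70 ± 0.15 (edgeR adjusted p = 0.00045, higher in 34 of 44 mice), Chrnb1 by 0.68 ± 0.10 (edgeR adjusted p = 2.1e-06, 37 of 44) and Chrne by 0.29 ± 0.12 (edgeR adjusted p = 0.048, 30 of 44). Chrnd had 0.28 ± 0.19 (edgeR adjusted p = 0.25). In the 27 mice numbered 21 to 59 alone, Chrna1 had 0.37 (edgeR adjusted p = 0.15) and Chrne 0.15 (edgeR adjusted p = 0.54), while Chrnb1 rose by 0.45 (edgeR adjusted p = 0.016). Without the low-count filter Chrne missed the threshold (edgeR adjusted p = 0.070). Less Chrna1 in the cast limb was found in 10 mice, which the ranking places among the weak mice by its design. In bulk muscle, fewer cells of a type and less RNA per cell cannot be told apart.

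The changes in strong and weak mice are compared below as means of log2(CPM + 1), a scale that understates fold changes of genes with few counts. Chrna1 and every other gene come from the same libraries, so the comparison of these mice is a description and no p-value from it is used as support. Over all genes tested the median strong minus weak difference was 0.15, and 8378 of 11053 genes (75.8%) lay above 0. With library sizes corrected by TMM, which sets most genes to no average change, that median was 0.01 and 5788 genes lay above 0, so each difference should be read against 0.15. As background alone, edgeR put 13 of 11545 genes past the threshold for a difference between the 2 sets of mice, 8 higher (0.0693%) and 5 lower (0.0433%) in strong mice, and 973 (8.43%) at an unadjusted p under 0.05. These 13 were Col23a1, Aif1l, Bhlhb9, Tmem229b, Sln, Arpp21, Igfn1 and Lpin2 on the high side and Fam57b, Slc16a3, Dhrs7c, Pfkfb1 and Kcnc1 on the low side.

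The other receptor subunits were higher in the cast limb of strong mice to unequal degrees. Chrnb1, the beta subunit of both fetal and adult receptors, lay at 79.7, 122 and 198 CPM in the immobilized and 38.6, 47.3 and 70.8 CPM in the control limbs of strong mice (lowest, median, highest). In weak mice it lay at 27.2, 47.0 and 83.4 CPM in the immobilized and 26.4, 46.3 and 65.0 CPM in the control limbs. Its immobilized limbs overlapped only at the edge, between 79.7 and 83.4 CPM. Its change was 1.25 ± 0.53 in strong mice and 0.24 ± 0.66 in weak mice (SD, n = 12 each), and all 12 strong and 7 of 12 weak mice had more in the cast limb. Chrnd, the delta subunit of both receptor forms, lay at 3.35, 10.4 and 34.6 CPM in immobilized and 0.313, 4.03 and 8.83 CPM in control limbs of strong mice, against 0.616, 2.75 and 4.28 CPM in immobilized and 0.314, 4.33 and 6.83 CPM in control limbs of weak mice. Its change was 1.28 ± 0.97 in strong mice and -0.44 ± 0.97 in weak mice, with 11 strong and 2 weak mice higher in the cast limb. Chrnd thus had opposite mean signs in the 2 sets, beside an average cast effect that missed the threshold.

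The subunits that tell the fetal from the adult receptor differed from each other. Chrng, the gamma subunit of the fetal receptor, lay at 0, 2.62 and 27.2 CPM in the immobilized limbs of strong mice and at no more than 0.419 CPM in their control limbs. In weak mice it reached 1.24 CPM in the immobilized and 0.989 CPM in the control limbs. A library of these mice with 3 counts of a gene stands at 0.495 to 1.17 CPM, so the levels in weak mice and in control limbs lay near the limit of detection. The change of Chrng was 2.04 ± 1.31 in strong mice and 0.15 ± 0.57 in weak mice, and 9 of 12 strong mice lay above every weak mouse. Chrng did not pass the low-count filter and has no test. Chrne, the epsilon subunit that replaces gamma after birth, had a mean change of 0.32 ± 0.51 in strong mice and -0.07 ± 0.84 in weak mice, and no strong mouse lay above every weak mouse. Its level already differed in the control limbs, with medians of 16.2 CPM in strong and 11.3 CPM in weak mice.

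**Figure D2:**
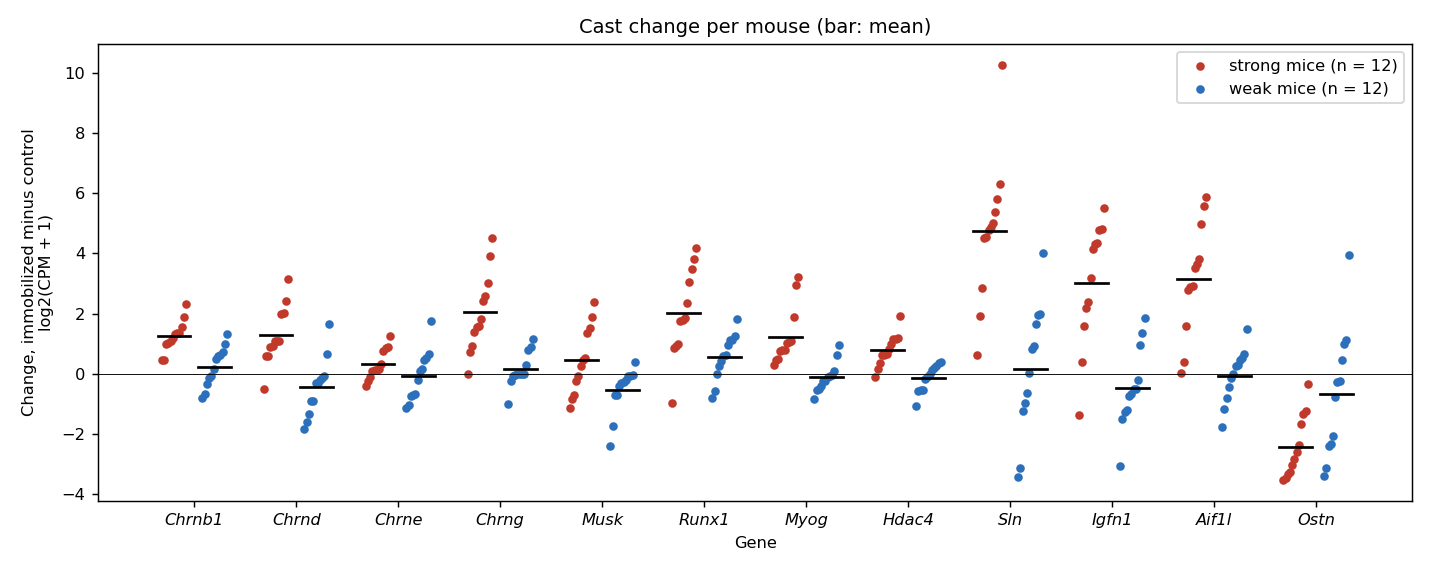
Change of 12 genes (immobilized minus control, log2(CPM + 1)) in each of the 12 strong mice (red, left of each pair) and 12 weak mice (blue, right), with a bar at the mean. The bars of Chrnd, Chrne, Musk, Myog, Hdac4, Igfn1 and Aif1l lie above 0 in strong and below 0 in weak mice. Ostn has its strong mean of -2.41 below its weak mean of -0.67.

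Genes that build the synapse differed less between strong and weak mice. Of 21 genes in this list 16 passed the filter, and over the 44 mice 1 rose and 3 fell against the 15.9% and 18.0% of all genes. The neuregulin receptor Erbb2 rose by 0.45 ± 0.15 (edgeR adjusted p = 0.014). Lrp4, the agrin receptor, fell with -0.27 ± 0.08 (edgeR adjusted p = 0.0098), as did Colq, which anchors acetylcholinesterase, with -0.27 ± 0.10 (edgeR adjusted p = 0.038), and the dystrophin partner Dtna with -0.16 ± 0.06 (edgeR adjusted p = 0.030). In the mice numbered 21 to 59 alone Erbb2, Lrp4 and Colq lost the call (edgeR adjusted p = 0.070, 0.058 and 0.18), and Colq and Dtna also lost it without the low-count filter (0.069 and 0.065) and with no replicate block (0.084 and 0.098). The median strong minus weak difference of the list was 0.28, and 0.14 with TMM. Only Musk at 0.99 and Erbb3 at 1.15 exceeded 0.6. Musk lay at 4.08, 13.0 and 29.1 CPM in immobilized and 1.87, 9.47 and 34.8 CPM in control limbs of strong mice, against 2.24, 7.81 and 12.5 CPM in immobilized and 3.91, 10.6 and 17.6 CPM in control limbs of weak mice. These ranges overlap widely, and the change was 0.45 ± 1.13 in strong mice, higher in 7 of 12, and -0.54 ± 0.79 in weak mice, higher in 1 of 12. Erbb3, the partner of Erbb2, was higher in the cast limb of 11 strong mice and 1 weak mouse. Agrin itself (Agrn), the scaffold Rapsn and the Musk adaptor Dok7 differed by 0.25, 0.09 and 0.31. The direction of Rapsn turned to -0.05 with TMM, as did those of Etv4 at -0.04, Dtna at -0.01 and Ufsp1 at -0.10. Nrg1, Erbb4, Col13a1, Sntb1 and Vangl2 did not pass the filter.

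The denervation list differed more widely between strong and weak mice. Of its 20 genes 16 passed the filter, 9 rose over the 44 mice and 1 fell, beside 15.9% and 18.0% of all genes. Their median difference was 1.13, and 0.99 with TMM, beside 0.15 and 0.01 over all genes. Runx1, a transcription factor that preserves denervated fibres, rose by 1.10 ± 0.23 (edgeR adjusted p = 0.00023) in 34 of 44 mice. It lay at 6.47, 15.6 and 46.3 CPM in immobilized and 0.315, 3.47 and 26.4 CPM in control limbs of strong mice, against 2.85, 5.02 and 17.3 CPM in immobilized and 0.783, 3.67 and 5.83 CPM in control limbs of weak mice. The change of Runx1 was 2.01 ± 1.47 in strong and 0.57 ± 0.76 in weak mice, and 11 strong and 9 weak mice were above 0. Runx1 was thus higher in the cast limb of most weak mice, which were chosen for their low Chrna1 change.

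Of the myogenic factors and deacetylases of the denervation list, Myog, Myf6 and Hdac4 differed most between strong and weak mice. Myog lay at 5.37, 15.4 and 53.2 CPM in immobilized and 1.88, 8.16 and 26.8 CPM in control limbs of strong mice, against 2.43, 7.14 and 11.6 CPM in immobilized and 4.01, 6.61 and 12.0 CPM in control limbs of weak mice. It was higher in the cast limb of all 12 strong mice and 3 of 12 weak mice, with changes of 1.24 ± 0.96 and -0.10 ± 0.50 in strong and weak mice. Over the 44 mice it had 0.34 ± 0.14 and missed the threshold (edgeR adjusted p = 0.059), which it passed with DESeq2 (adjusted p = 0.047) and with no replicate block (edgeR adjusted p = 0.029). Myf6, a myogenic factor of mature fibres, rose by 0.38 ± 0.09 (edgeR adjusted p = 0.0010), with changes of 1.00 ± 0.57 in strong and 0.08 ± 0.37 in weak mice. Myod1 rose by 0.37 ± 0.09 (edgeR adjusted p = 0.0011) but not with no replicate block (edgeR adjusted p = 0.16), and differed by 0.31 between strong and weak mice.

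Hdac4, whose protein represses the repressors of myogenin, rose by 0.28 ± 0.09 (edgeR adjusted p = 0.010). It lay at 25.7, 50.4 and 103 CPM in immobilized and 24.3, 30.0 and 47.7 CPM in control limbs of strong mice, against 17.6, 33.5 and 49.8 CPM in immobilized and 23.7, 37.6 and 44.5 CPM in control limbs of weak mice. Its change was 0.79 ± 0.54 in strong and -0.13 ± 0.45 in weak mice, and 9 strong mice lay above every weak mouse. Hdac9, which is known to fall after denervation, fell with -0.45 ± 0.12 (edgeR adjusted p = 0.0029) and had -0.25 ± 0.78 in strong and -0.22 ± 0.83 in weak mice. Dach2, the repressor of myogenin, did not pass the filter, and its changes were -0.57 ± 0.91 in strong and -0.81 ± 1.18 in weak mice. Neither of these falling genes set the strong mice apart.

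Among the effectors Sln stood out. Sarcolipin, its product, uncouples the calcium pump of the sarcoplasmic reticulum. Sln lay at 23.2, 191 and 1509 CPM in immobilized and 0.227, 5.82 and 30.5 CPM in control limbs of strong mice, against 1.03, 8.69 and 71.0 CPM in immobilized and 0.627, 13.0 and 41.7 CPM in control limbs of weak mice. Its change of 4.74 ± 2.40 in strong and 0.17 ± 2.18 in weak mice gave the largest difference among the genes averaging at least 5 CPM, 4.57. Ncam1, an adhesion molecule that spreads over denervated fibres, had a mean change of 1.05 ± 0.72 in strong and -0.21 ± 0.74 in weak mice, with an average effect short of the threshold at 0.26 ± 0.13 (edgeR adjusted p = 0.11). The growth-arrest genes Gadd45a and Cdkn1a rose by 0.63 and 0.51 (edgeR adjusted p = 0.0019 and 4.3e-05). So did the potassium channel Kcnn3 by 0.63 and the titin partner Ankrd1 by 0.88 (edgeR adjusted p = 0.028 and 0.013). Their differences between strong and weak mice were 1.12, 0.74, 1.26 and 1.21. Rrad, a GTPase, and the AMP deaminase Ampd3 differed by 1.33 and 1.14, while Tnfrsf12a, the receptor of TWEAK, had -0.21 and Nnmt 0.16. Gdf5 and Sox11 did not pass the filter, like Dach2. In the 27 mice numbered 21 to 59 alone, the rise over all ranks of Runx1, Sln and Cdkn1a kept its call, and those of Myod1, Myf6, Hdac4, Gadd45a, Kcnn3, Ankrd1 and the fall of Hdac9 lost it.

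**Figure D3:**
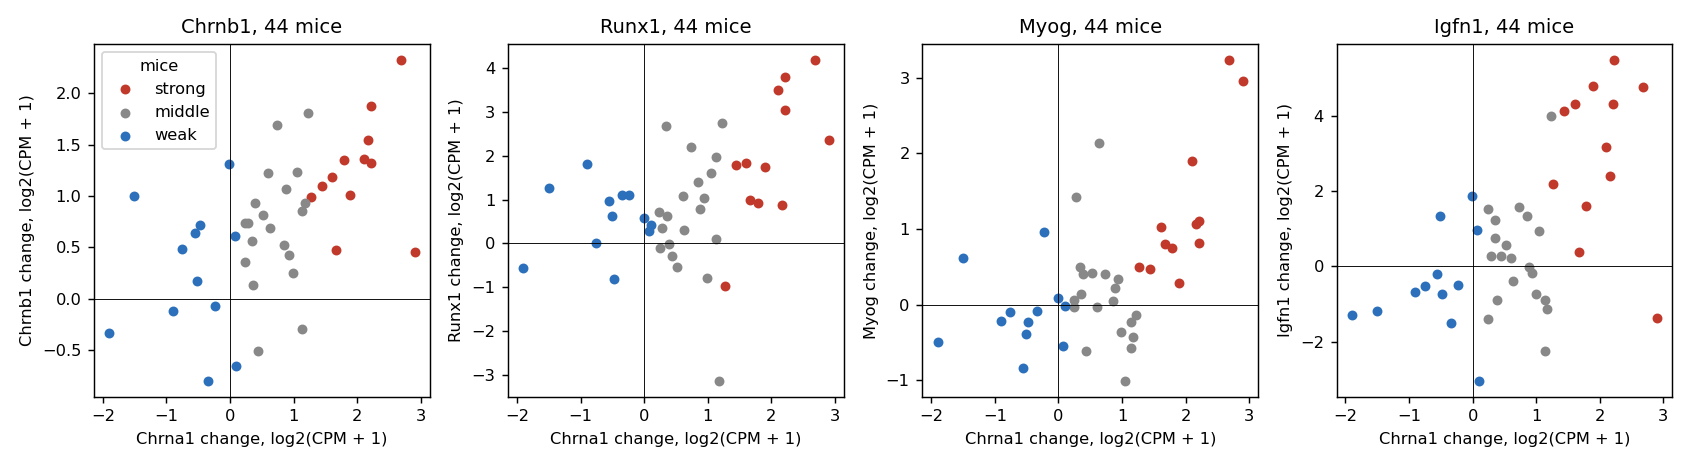
Change of Chrnb1, Runx1, Myog and Igfn1 (vertical, immobilized minus control, log2(CPM + 1)) against the change of Chrna1 (horizontal, same scale) in 44 mice, with strong mice in red, middle mice in grey and weak mice in blue. Male 37 has the highest Chrna1 change, 2.90, with Igfn1 at -1.37 and Myog at 2.95, and the middle mice show no slope that passed the test.

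Single mice departed from the group pattern, and those named here were chosen after their values were seen. Male 37, first in rank, had a Chrnd change of 3.16 and a Myog change of 2.95, but an Igfn1 change of -1.37 and a Chrnb1 change of 0.45. Male 12, second, had the highest changes among strong mice of Runx1 at 4.19, Myog at 3.23, Chrnb1 at 2.33 and Hdac4 at 1.92. Male 59 was strong by Chrna1 at 1.67, yet its Chrng change was 0.00, with Sln at 0.62 and Aif1l at 0.39. Female 45 was the strong mouse with less Runx1 in the cast limb, at -0.98. Among weak mice, males 31 and 54 had Runx1 changes of 1.81 and 1.26 with Chrna1 changes of -0.90 and -1.50. Female 47 had a Sln change of 4.03 and a Chrnd change of 1.65 at a Chrna1 change of 0.10.

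Outside these lists, genes with a mean of at least 5 CPM were ranked by the strong minus weak difference. After Sln the highest were the collagenase Mmp13 at 3.98, Igfn1 at 3.48, Aif1l at 3.22, the aldehyde dehydrogenase Aldh3a1 at 2.61, Lrrn1 at 2.15, the metalloprotease inhibitor Timp1 at 2.05, the keratin Krt18 at 2.02, Ttc9 at 1.92, Arpp21 at 1.88, the homeobox factor Barx2 at 1.81 and the prostaglandin dehydrogenase Hpgd at 1.77. Differences above 1 were found in 1.18% of the 11053 genes that passed the low-count filter and below -1 in 0.0543%. Mmp13 did not pass that filter, so it is not among these 11053 genes. Igfn1, a protein of the sarcomere's Z-disc, lay at 5.27, 69.8 and 316 CPM in immobilized and 0.785, 3.48 and 47.0 CPM in control limbs of strong mice. In weak mice it lay at 1.14, 3.73 and 63.2 CPM in immobilized and 0.423, 6.64 and 97.8 CPM in control limbs. It rose over the 44 mice by 0.89 ± 0.34 (edgeR adjusted p = 0.040), higher in 25, of which 11 were strong and 3 weak. In the mice numbered 21 to 59 alone Igfn1 had 0.24 (edgeR adjusted p = 0.68), and without the low-count filter it missed the threshold (edgeR adjusted p = 0.0504).

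Aif1l, an actin-binding relative of allograft inflammatory factor, lay at 3.10, 32.8 and 149 CPM in immobilized and 0.940, 2.34 and 8.61 CPM in control limbs of strong mice, against 0.550, 3.25 and 12.1 CPM in immobilized and 1.48, 2.78 and 14.3 CPM in control limbs of weak mice. It rose by 1.38 ± 0.30 (edgeR adjusted p = 0.00041), but by 0.76 in the mice numbered 21 to 59 (edgeR adjusted p = 0.052), and 10 strong mice lay above every weak mouse. Mmp13 had 0 counts in the control limbs of all 12 strong mice and lay at 0, 36.6 and 143 CPM in their immobilized limbs. It did not pass the low-count filter, and its mean of at least 5 CPM came mainly from these immobilized limbs. In weak mice it reached 20.5 CPM in the immobilized and 0.417 CPM in the control limbs. Its changes were 4.92 ± 1.85 in strong and 0.94 ± 1.43 in weak mice. Across all genes that passed the filter, 2 of 11053 (0.0181%) had every strong mouse above every weak mouse, and 0 (0.0%) had every strong mouse below. The 2, found after the values were seen, were Bhlhb9, with changes from 0.38 to 3.03 in strong and -1.52 to 0.36 in weak mice, and Col23a1, a membrane collagen, with 0.60 to 2.83 in strong and -1.21 to 0.52 in weak mice. Where fewer than 12 strong mice lay beyond every weak mouse, as for Aif1l, the share over all genes is not given here.

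At the other end were genes whose change was lower in the strong mice. The lowest differences were Ostn at -1.74, Fam57b at -1.24, Snai3 at -1.08, Gadd45b at -1.05, the potassium channel Kcnc1 at -0.95, the nitric oxide synthase Nos1 at -0.94, mt-Nd4l at -0.91, the lactate carrier Slc16a3 at -0.89, the muscle fructose bisphosphatase Fbp2 at -0.86, Tk1 at -0.81, the ketone body enzyme Bdh1 at -0.81 and Mlf1 at -0.79. The transcript mt-Nd4l overlaps mt-Nd4, so reads could be shared between them. Ostn, which encodes the secreted peptide musclin, lay at 0.434, 9.36 and 28.9 CPM in immobilized and 6.31, 51.7 and 181 CPM in control limbs of strong mice. In weak mice it lay at 2.56, 16.3 and 65.5 CPM in immobilized and 3.31, 29.3 and 146 CPM in control limbs. Ostn fell over the 44 mice with -1.56 ± 0.24 (edgeR adjusted p = 3.2e-06), was lower in the cast limb of all 12 strong mice and higher in 4 weak mice. Fam57b, a ceramide synthase relative, fell with -0.44 ± 0.10 (edgeR adjusted p = 0.00095), with mean changes of -1.04 ± 0.50 in strong and 0.19 ± 0.46 in weak mice, and 11 strong mice lay below every weak mouse. In the mice numbered 21 to 59 it had -0.28 (edgeR adjusted p = 0.085). Nos1 and Mlf1 fell over the 44 mice (-0.65 and -0.49, edgeR adjusted p = 4.4e-06 and 0.00017), Mlf1 not with no replicate block (edgeR adjusted p = 0.053), while Slc16a3 and Fbp2 did not pass (-0.19 each, edgeR adjusted p = 0.11 and 0.20).

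**Figure D4:**
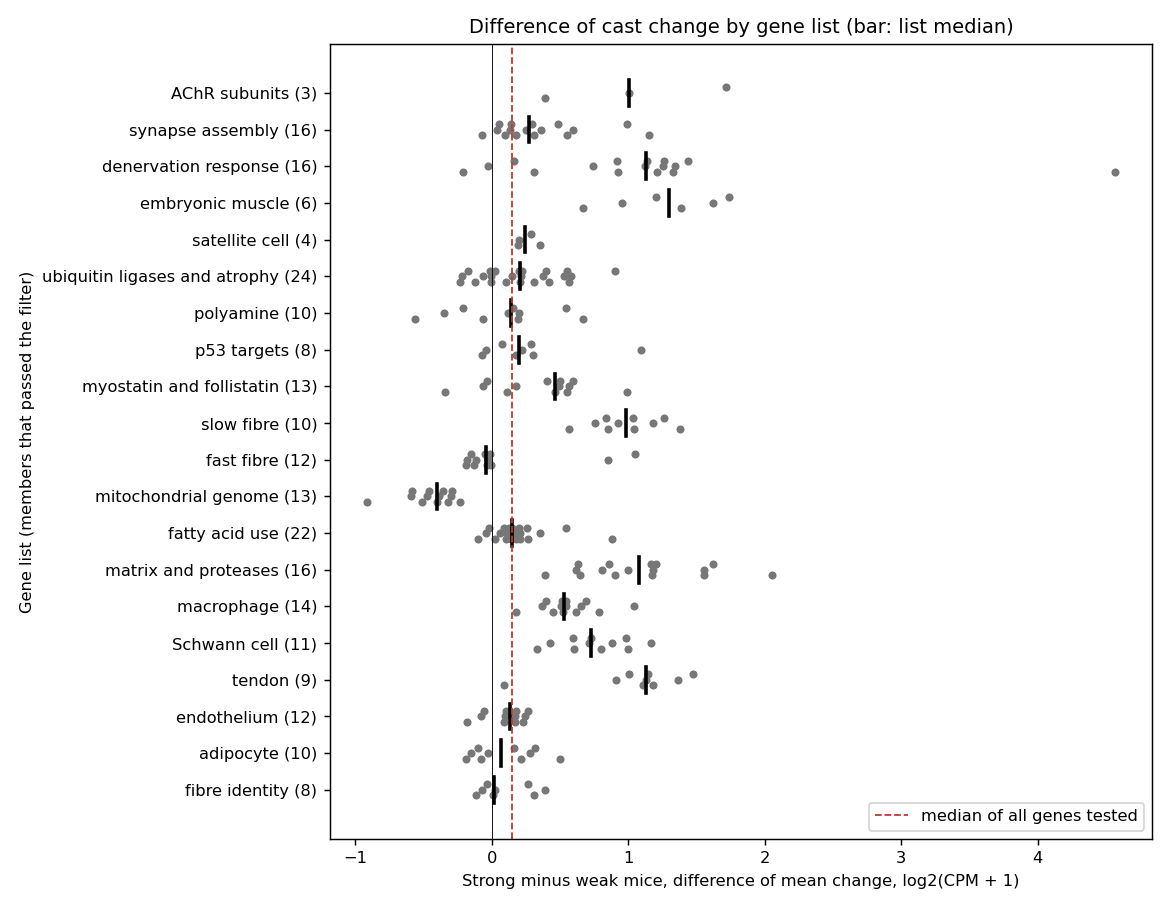
Strong minus weak difference of the mean change in log2(CPM + 1), 1 point per gene that passed the filter, by gene list, with a bar at each list's median and the number of genes in brackets (Chrna1 left out). The dashed line is the median of all genes tested, 0.15: the embryonic muscle, denervation, tendon, matrix, receptor and slow fibre lists have medians from 0.98 to 1.30, and the mitochondrial genome list lies at -0.40.

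Gene lists of fibre state varied beside the receptor genes. All 6 embryonic muscle genes that passed the filter had a positive difference, as had 75.8% of all genes, with a median of 1.30 beside 0.15. Of these Myl4 and Tnnt2, the embryonic myosin light chain and the cardiac form of troponin T made in immature muscle, rose over the 44 mice by 0.76 and 0.79 (edgeR adjusted p = 0.00018 and 0.0012), Tnnt2 not in the mice numbered 21 to 59 alone (edgeR adjusted p = 0.067). Tnnt2 had a mean change of 1.63 ± 1.37 in strong and -0.11 ± 0.87 in weak mice. The embryonic myosin Myh3 did not pass, at -0.48 ± 0.21 (edgeR adjusted p = 0.069), and had 0.41 ± 0.96 in strong and -0.97 ± 1.40 in weak mice. The 10 slow fibre genes had a median difference of 0.98, with a spread between mice larger than that difference: Myh7, the slow myosin, had a mean change of 0.12 ± 3.06 in strong and -1.06 ± 1.72 in weak mice, higher in 4 and 3 of 12. Their summed level had medians of 2518 CPM in immobilized and 2770 CPM in control limbs of strong mice, against 3308 and 4016 CPM in the same limbs of weak mice. The median change of this sum hardly differed, at -1.131 in strong and -1.115 in weak mice, and it was above 0 in 4 and 5 of 12. Its highest change was 4.11 in strong and 2.11 in weak mice. The 12 fast fibre genes had a median of -0.04, with Myh2 at 1.05 and Myh1 at 0.85 as exceptions. All 13 transcripts of the mitochondrial genome had a difference below 0, as had 2675 of 11053 genes, with a median of -0.40, or -0.55 with TMM. They took 11.8% of counts in immobilized and 15.3% in control limbs of strong mice, and 13.1% and 14.5% in the same limbs of weak mice (medians).

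The classical atrophy genes differed between strong and weak mice about as much as all genes did. Of 24 ubiquitin ligase and autophagy genes, 4 rose and 7 fell over the 44 mice, beside 15.9% and 18.0% of all genes, and the median difference was 0.20, close to the 0.15 of all genes. Fbxo32 and Trim63, the muscle ubiquitin ligases, had -0.19 and -0.13 (edgeR adjusted p = 0.09 and 0.20) with differences of 0.31 and -0.06. Trim63 and 7 other genes of the list lay below 0. The autophagy gene Map1lc3a and the lysosomal protease Ctsl rose by 0.41 and 0.31 (edgeR adjusted p = 2.1e-06 and 0.00089), with 0.80 ± 0.41 and 0.72 ± 0.46 in strong mice and 0.22 ± 0.37 and 0.19 ± 0.70 in weak mice. Of the myostatin pathway Fst, the myostatin binder, rose by 0.66 ± 0.12 (edgeR adjusted p = 3.1e-05) and had 1.16 ± 0.64 in strong and 0.17 ± 0.44 in weak mice, whereas Mstn itself fell with -0.50 (edgeR adjusted p = 0.029) and differed by -0.03. Polyamine, p53 and fatty acid lists had medians of 0.14, 0.20 and 0.15. Eda2r, a receptor among the p53 targets that rises in wasting muscle, stood apart at 1.09.

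Markers of other cell types varied with the sets of mice, and their part in the differences above was not tested. The 14 Schwann cell markers, genes of the cells that ensheathe motor nerves, summed to 188 to 512 CPM in immobilized and 71.9 to 299 CPM in control limbs of strong mice, against 104 to 428 CPM in immobilized and 120 to 533 CPM in control limbs of weak mice. Of the 11 that passed the filter, 9 rose over the 44 mice, beside 15.9% of all genes. All 11 had a positive difference, as had 75.8% of all genes, with a median of 0.73 beside 0.15. Mbp, a myelin protein, had a mean change of 1.07 ± 0.58 in strong mice, higher in all 12, and 0.19 ± 0.82 in weak mice, higher in 7. The 18 matrix genes summed to 1019 to 11345 CPM in immobilized and 319 to 2311 CPM in control limbs of strong mice, against 899 to 8297 CPM in immobilized and 548 to 3540 CPM in control limbs of weak mice, with a median difference of 1.08 over the 16 that passed. The 10 tendon markers summed to 304 to 2479 CPM in immobilized and 85.0 to 1298 CPM in control limbs of strong mice, against 37.7 to 2902 CPM in immobilized and 217 to 1075 CPM in control limbs of weak mice (median difference 1.13 over 9 genes).

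The 16 macrophage markers summed to 101 to 1250 CPM in immobilized and 20.8 to 182 CPM in control limbs of strong mice, against 32.1 to 2246 CPM in immobilized and 89.9 to 165 CPM in control limbs of weak mice. Of the 14 that passed, 13 rose over the 44 mice, beside 15.9% of all genes, and all 14 had a positive difference, as had 75.8% of all genes, with a median of 0.53. Adipocyte sums ran from 335 to 1406 CPM in immobilized and 266 to 1746 CPM in control limbs of strong mice, and from 381 to 7601 CPM in immobilized and 476 to 1843 CPM in control limbs of weak mice. The 14 lymphocyte markers summed to at most 6.47 CPM in immobilized and 18.3 CPM in control limbs of strong mice, and to at most 35.2 CPM in immobilized and 209 CPM in control limbs of weak mice. The B cell genes Ms4a1 and Cd79a were at 0 in 32 and 31 of these 48 libraries and the T cell gene Cd3e in 18, while the Schwann cell genes Mbp and Sox10 were at 0 in none. The adipocyte, endothelial and fibre identity medians were 0.07, 0.14 and 0.02, and with TMM each of them lay below 0, at -0.07, -0.00 and -0.13.

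Within the number blocks the strong mice kept higher mean changes than the weak mice for the receptor genes, with few mice in some cells of this comparison. Runx1 had means of 2.49 in the 8 strong mice numbered 1 to 20, 1.04 in the 4 strong mice numbered 21 to 59, 0.15 in the 2 weak mice numbered 1 to 20 and 0.65 in the 10 weak mice numbered 21 to 59. In the same order Igfn1 had 3.86, 1.34, -0.62 and -0.42, and Chrnb1 had 1.5, 0.75, 0.32 and 0.23. Chrng had 2.51, 1.09, 0.37 and 0.11 and Sln 5.16, 3.88, -0.58 and 0.32. Chrnd at 1.14, 1.56, -0.21 and -0.48, Myog at 1.27, 1.18, 0.37 and -0.20 and Hdac4 at 0.82, 0.74, -0.06 and -0.15 showed similar means in both blocks of strong mice. The values of Runx1, Igfn1, Chrnb1 and Chrng were lower in the strong mice numbered 21 to 59, a split that was not tested. By sex the signs of the difference were alike for these genes. In females Chrnb1 had 1.35 in strong and -0.09 in weak mice and Runx1 1.52 and 0.37, and in males Chrnb1 had 1.14 in strong and 0.58 in weak mice and Runx1 2.5 and 0.76. Ostn had -2.84 in strong and 0.41 in weak females, beside -1.98 in strong and -1.75 in weak males. The Ostn changes of weak females ran from -3.12 in female 47 to 3.95 in female 27, whose control limb had 3.31 CPM. The positive mean of the weak females rested on female 27. By edgeR 0 of 11697 genes differed in cast effect between males and females over the 44 mice, with 359 (3.07%) at an unadjusted p under 0.05.

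The 20 middle mice, which entered neither end, allowed a test of whether other genes track Chrna1. Their Chrna1 changes ran from 0.24 to 1.23 (SD 0.34, n = 20), a narrow range. By edgeR 0 of 10926 genes (0.0%) had a slope on the Chrna1 change past the threshold, with 335 (3.07%) at an unadjusted p under 0.05, and limma on the per-mouse changes called 0, with 562. On simulated counts of 10926 genes for this slope the same fit recovered 20% of slopes of 1 and 76% of slopes of 2 on the log2 scale. Most simulated slopes of 1 and some of 2 were thus missed, so slopes of these sizes or smaller could have been missed in these mice. Of 34 receptor, synapse and denervation genes with a fit, 15 slopes were positive and 19 negative, beside 49.3% positive of all genes. By list, 2 receptor slopes were positive and 1 negative, 10 and 6 among synapse genes, and 3 and 12 among denervation genes. The denervation slopes had a median of -0.43, while 14 of 16 differences in that list lay above 0, beside 75.8% of all genes. The only positive denervation slopes were those of Runx1, Hdac4 and Sln. Chrnb1 had 0.26 with a 95% interval from -0.52 to 1.05, Runx1 0.08 (-1.91 to 2.07), Hdac4 0.02 (-0.61 to 0.64) and Sln 0.09 (-1.80 to 1.99). For comparison, edgeR's fitted log2 difference between strong and weak mice was divided by the Chrna1 difference of 2.58. This ratio was 0.33 for Chrnb1, 0.54 for Runx1, 0.31 for Hdac4 and 1.79 for Sln, and each of the 4 intervals held both 0 and the ratio.

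For 32 of the 34 genes the interval held that ratio, against 96.4% of all genes. The exceptions were Myog and Ampd3. Myog had a slope of -1.16 (95% interval -2.21 to -0.11, edgeR unadjusted p = 0.032, adjusted p = 1.0) beside a ratio of 0.50, and Ampd3 had -0.91 beside 0.41. The 10 slow fibre genes had slopes from -1.57 to -1.0, each below 0 and none at an unadjusted p under 0.05 by edgeR. Their strong minus weak differences of the change were all above 0, as in 75.8% of all genes. The 9 adipocyte genes and 12 macrophage genes with a fit had positive slopes, as had 49.3% of 10926 genes, with medians of 1.89 and 1.05. By edgeR 0 of these adipocyte genes and 1 of these macrophage genes had an unadjusted p under 0.05, and 0 passed the threshold. Other lists with positive differences had mostly negative slopes. Positive and negative slopes numbered 3 and 7 for Schwann cell (median -0.52), 2 and 7 for tendon (-0.66) and 2 and 4 for embryonic muscle genes (-0.35). Matrix genes had 7 of each. In these 4 lists 0 genes had an unadjusted p under 0.05 by edgeR. The genes with the smallest p were Tnrc18, Dtd2 and Mthfsd with slopes of 0.87, 1.28 and 0.76 and Naa30, Naa20 and mt-Nd3 with -0.73, -0.65 and -1.38 (edgeR adjusted p = 1.0 for each). In 2 of the middle mice, females 21 and 50, a library held under 2500000 counts, and without them, a choice made after seeing the data, the slope passed in 0 genes by edgeR, with 334 at an unadjusted p under 0.05.

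**Figure D5:**
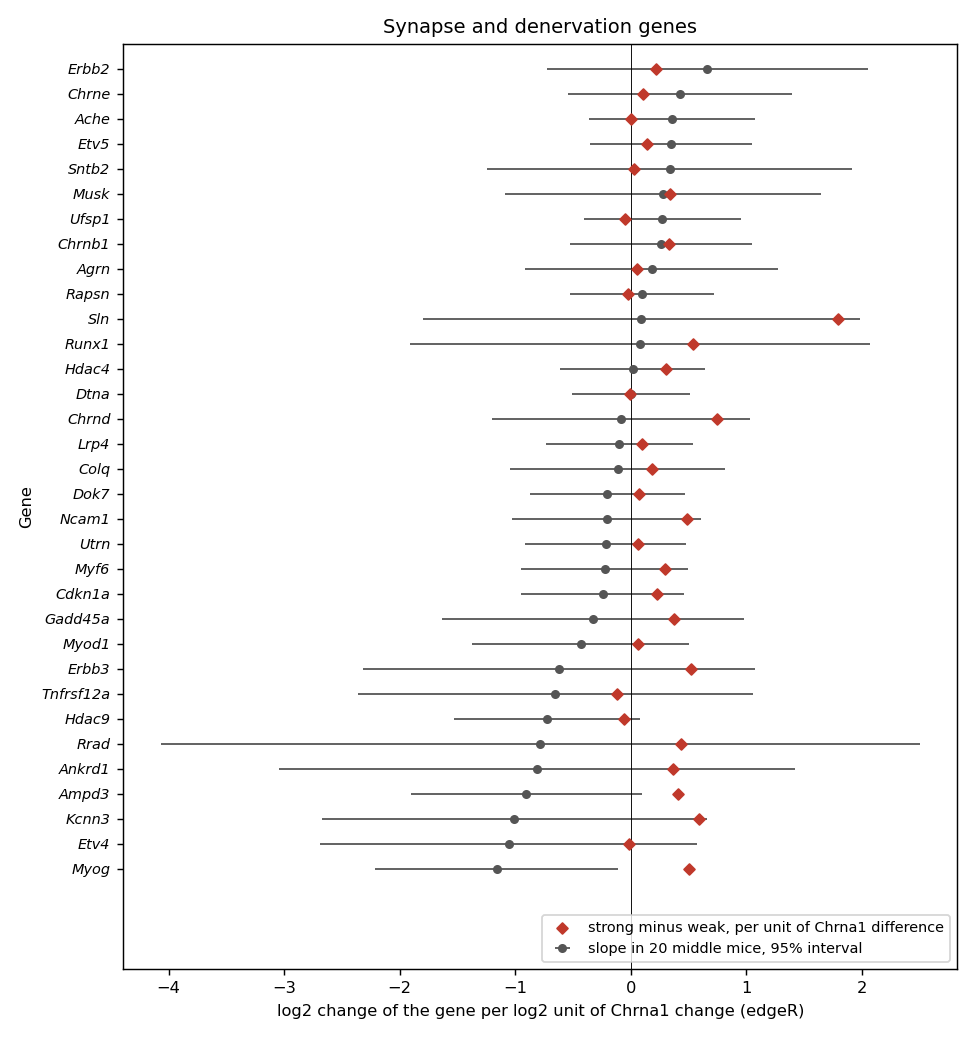
Slope of the log2 change of receptor, synapse and denervation genes per log2 unit of Chrna1 change in the 20 middle mice (grey points, lines for the 95% interval, edgeR) and edgeR's fitted strong minus weak difference divided by the Chrna1 difference (red diamonds). The red diamonds of Myog at 0.50 and Ampd3 at 0.41 fall outside the grey lines, and most grey lines cross 0.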

How the data were processed

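The authors deposited counts by gene symbol, with females and males in separate tables; every value is a whole number, and they were taken as raw counts. The aligner, the counter and the build were not given in the sources used here. Groups came from the labels, and the limbs were paired because both belong to the same animal: in 41 of 44 mice the deviations of the 2 limbs from their group means had a correlation above 0.1 (median 0.38, lowest 0.053), against a median of -0.010 between mice. CPM was the count over the column sum. The tables hold 32544 symbols and 0 rows that name no gene.

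The counts went into edgeR 4.0.16 under R 4.3.3 (low-count filter, TMM, quasi-likelihood) with the animal as a block, for the cast effect in 44 mice, the strong minus weak difference, the slope on the Chrna1 change in the 20 middle mice and the male minus female difference. DESeq2 1.42.0 and limma 3.58.1 were alternatives, as were other size factors, no filter, no replicate block, other group sizes and subsets of mice. Replicates are different mice, 1 library per limb, and reads carry no molecular identifiers, so the limit of 3 counts covers counting error alone. Depth limits precision for genes of few counts. On simulated counts the cast effect fit recovered 90% of 1.5-fold and 99% of 2-fold changes among 11053 genes, and the strong minus weak fit 61% of 2-fold and 95% of 4-fold differences among 11545.

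Named are all measured genes of the receptor, synapse and denervation lists, up to 4 genes per other list with the smallest cast p and up to 3 with the largest difference, the 12 highest and 12 lowest differences at a mean of at least 5 CPM, and the 6 genes with the smallest slope p. A few others were chosen on seeing their values, and a few genes covered by this rule are left unreported here. The mice, the 21 lists and the tests were chosen with earlier results of these data known.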

Additional observations from a re-analysis of the deposited data

How the results depend on the processing

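The cast effect over 44 mice passed in 3747 genes, in 3129 to 3925 under the other settings with all 44 mice, and in 1719 in the mice numbered 21 to 59. The strong minus weak difference passed in 13 genes. It passed in 5 with groups drawn again on TMM scaling, 3 with 8 mice at each end, 22 with all 56 mice, 0 with 8 and 8 of the mice numbered 21 to 59 (edgeR, 478 at an unadjusted p under 0.05) and 5 with no replicate block in place of the animal block. Of those genes, 3, 3, 4 and 4 were among the 13 for TMM, 8 mice, all 56 mice and no block. The slope in middle mice passed in 0 genes and in 1 without the low-count filter, Ltf at 14.94. The sex difference passed in 0 genes and in 1 with no replicate block, Krt10 at -5.23. Strong minus weak mice numbered 1 to 20 came to 6, and to 4 with 15 mice at each end.

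Of 174 named differences between strong and weak mice, 174 stayed within 1 SD between mice on TMM scaling with 11 of 12 strong and 11 of 12 weak mice shared, and 163 in mice numbered 21 to 59. With all 56 mice, 9 strong and 8 weak mice were shared, 80 differences moved further than that, and Kcnc1 and Slc16a3 reversed to 0.43 and 0.33; the left-out mice include those with low Acta1 libraries. In mice numbered 21 to 59 alone, a fit on fewer mice, 52 of 162 named cast effects lost their call. With no replicate block 16 lost it and 5 gained it. The cause of these shifts was not tested. The narrow range of Chrna1 in the 20 middle mice limits what the slope can show.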
